A study of Sus scrofa domesticus with 4 samples.

Results

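Chemokines are small secreted proteins that draw white blood cells along a gradient, and each acts through a G protein-coupled receptor on its target cell. CXC chemokines with an ELR motif bind CXCR1 and CXCR2 and recruit neutrophils, whereas most CC chemokines recruit monocytes, T cells and dendritic cells. In the endometrium of the early pregnant pig, leukocytes gather where the conceptus attaches, and epithelial, stromal and immune cells are all known sources of chemokines. CCR7, the only receptor described here as a member, guides mature dendritic cells and naive T cells towards CCL19 and CCL21.

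The genes described are 9 chemokines and CCR7. They were chosen by name, as leukocyte-recruiting chemokines outside the CXCR3 ligand family, and by a probe whose RefSeq accession maps to one of the 10 symbols. All 10 genes were on the array, with 13 of its 43603 non-control probes. CXCL2, CCL2 and CCL5 had 2 probes each and the other genes 1 each. Sorted by main target cell, CXCL8, CXCL2 and AMCF-II act on neutrophils, CCL2 and CCL8 on monocytes, CCL5, CCL20 and CXCL12 on T cells, and CCR7 and CXCL14 belong with dendritic cells. The sorting is a simplification, since CCL5 also attracts monocytes and CCL20 also attracts immature dendritic cells.

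The treated group was endometrial explants cultured with 10 nM orexin B, a hypothalamic neuropeptide also called hypocretin 2, over 24 h. The untreated group was explants kept for the same time with no addition, and both had a 2 h preincubation. The tissue came from 4 crossbred gilts (Large White x Polish Landrace) aged 7 to 8 months, on days 15 to 16 of gestation, and the question was how orexin B alters endometrial gene expression. Each of 4 two-colour arrays held treated RNA in one dye and untreated RNA in the other, and treated RNA carried Cy5 on arrays 1 and 3 but Cy3 on arrays 2 and 4. The labels mention duplicate cultures and 4 animals without tying either to an array, so the spread between arrays may be partly technical. For each probe, the p-values, SEs and intervals use the spread between arrays of the same dye orientation. That spread is moderated towards the one typical of all tested probes, which carries more weight (5.09 prior against 2 residual degrees of freedom). A dye term in the fit takes up what the orientations do not share. An explant holds many cell types and has no blood supply, so no new cell can be recruited into it in culture.

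Detection was uneven between the dyes. Between 46.8% and 86.7% of spots were well above background in Cy5, against 27.8% to 36.2% in Cy3, and the low Cy5 value was that of array 2, whose scan fell on a different day from that of arrays 1, 3 and 4. Tests were run on the 13782 probes that stood well above background on each of the 4 arrays in treated RNA, in untreated RNA or in both. Markers of the tissue were present: 5 of 5 epithelial markers on the array were tested, among them EPCAM and KRT8, and 3 of 3 stromal markers, among them DCN and LUM. Of the conceptus markers, the aromatase gene CYP19A1 and IL1B2 were also tested, so RNA of conceptus origin in the explants cannot be told apart from endometrial RNA.

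Of the 13 member probes, 12 probes of 9 genes were tested, and CCL8 was not. All 12 had a fitted log2 ratio of treated over untreated below 0, beside 46.9% of all 13782 tested probes. The median over the 9 tested genes, each by its brightest probe, was -0.36, beside a median of 0.02 over all tested probes. Over the 1637 tested genes with a name, also by their brightest probes, the median was -0.02 and 56.1% were below 0, where 9 of 9 member genes were. None of the 12 passed the threshold of 0.05 after Benjamini-Hochberg adjustment over all tested probes (limma's moderated test, adjusted p = 0.999 for each), as 0% of all probes did. At an unadjusted limma p under 0.05 there were 4 member probes, all of them lower, namely those of CXCL8 and CCR7 and both of CCL5, beside 1.87% of all probes that were lower at that level. The ratio was below 0 on 4 of 4 arrays for 4 member probes, those of AMCF-II and CCR7 and both of CCL5, beside 3.61% of all probes. These genes were known from earlier results of the same arrays to stand low, so the counts are a description.

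The arrays did not contribute evenly. Among the 9 member genes, 6, 7, 8 and 5 had a ratio below 0 on arrays 1 to 4, and the medians were -0.47, -0.22, -1.02 and -0.33. The medians of all tested probes on the same arrays lay between -0.03 and 0.06. Array 3 held the lowest ratio of 7 of the 12 tested member probes and array 1 that of 3.

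Markers of the cells that make up the tissue are given beside these values. Of the 5 epithelial markers, 4 were lower and 1 higher, with a median log2 ratio of -0.26 and a summed signal of 50526 to 102206 in treated and 64828 to 135517 in untreated RNA. The tight junction gene CLDN3, with the smallest p of the 5, stood at -0.54 ± 0.21, with log2 ratios of -1.42, -0.28, -1.07 and 0.61 on arrays 1 to 4. The higher marker was KRT8, at 0.35 ± 0.32, with log2 ratios of 0.71, -0.65, 0.08 and 1.26. By their brightest probes, the 3 endothelial markers (median -0.34), the 3 smooth muscle markers (-0.21) and both tested conceptus markers (-0.28) were all lower. The 3 stromal markers were all higher (median 0.20). Probes of 1 gene did not always share a direction. Of the PECAM1 probes 2 of 3 were lower (highest 0.08), of ACTA2 2 of 4 (highest 0.39) and of LUM 2 of 6 (lowest -0.12). Of all tested named genes, 56.1% were lower. None of these markers passed after adjustment, and the part of these cell types in the chemokine ratios was not tested.

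**Figure D1:**
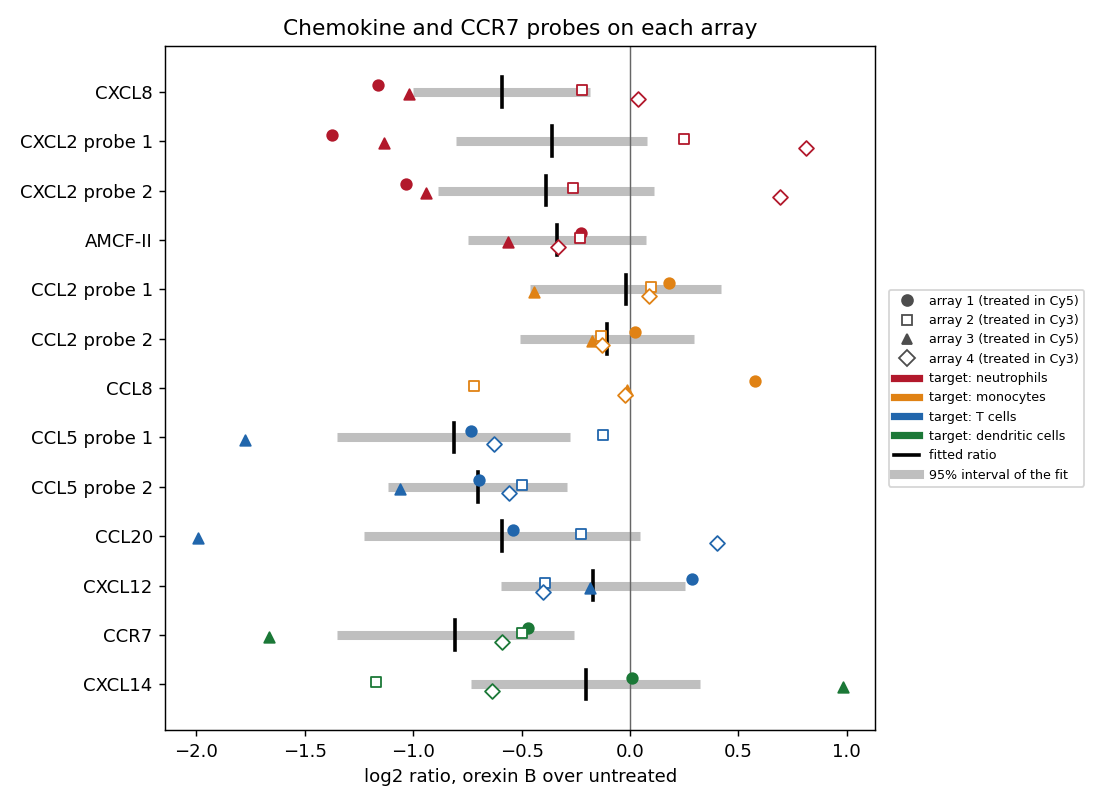
Log2 ratio of orexin B-treated over untreated RNA (horizontal axis) for the 13 probes, with a symbol per array, filled where treated RNA was in Cy5; black ticks are fitted ratios and grey bars their 95% intervals, which CCL8 lacks because it was not tested. The symbols of AMCF-II, CCR7 and both CCL5 probes all lie below 0, while those of both CXCL2 probes run from below -1 to above 0.6.

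CXCL8, interleukin 8, is the principal neutrophil attractant in pigs as in humans. Its probe had normalised log2 signals of 13.79, 15.13, 13.83 and 13.09 in treated RNA on arrays 1 to 4, against 14.96, 15.35, 14.85 and 13.06 in untreated RNA. The treated values lay within the range of the untreated ones, because signal differed more between arrays than between the RNAs of one array. Within the arrays the log2 ratios were -1.16, -0.22, -1.02 and 0.04. The low ratios were thus those of arrays 1 and 3, and array 4 stood near 0. The fitted log2 ratio was -0.59 ± 0.17 (moderated SE over 4 arrays, with a 95% interval of -1.0 to -0.19), or 1.51 times lower, with an adjusted p = 0.999. Within the scan day of arrays 1, 3 and 4 it was -0.53.

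CXCL2, a neutrophil attractant of the GRO family, had the widest disagreement between dye orientations of all tested members. Its brighter probe had normalised log2 signals of 13.87, 15.16, 14.20 and 14.60 in treated RNA on arrays 1 to 4, against 15.25, 14.91, 15.33 and 13.79 in untreated RNA. Its log2 ratios were -1.37, 0.25, -1.13 and 0.81, so treated RNA was the lower on arrays 1 and 3 and the higher on arrays 2 and 4. The second probe had ratios of -1.03, -0.26, -0.94 and 0.69, and the probes never differed by more than 0.51 on an array. The mean of both Cy5-treated arrays was -1.25 for the brighter probe, against 0.53 for both Cy3-treated arrays. The fitted ratios were -0.36 ± 0.19 (95% interval -0.80 to 0.08) and -0.39 ± 0.21 (-0.88 to 0.11), with adjusted p = 0.999 for each by limma. Within the scan day of arrays 1, 3 and 4 they were -0.22 and -0.15.

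AMCF-II, alveolar macrophage chemotactic factor II, is a porcine neutrophil attractant with CXCL6 as a synonym in RefSeq. It had normalised log2 signals of 12.92, 13.73, 11.71 and 12.41 in treated RNA on arrays 1 to 4, against 13.15, 13.96, 12.27 and 12.75 in untreated RNA. The treated value was the lower on every array, though the groups overlapped across arrays. The log2 ratios were -0.23, -0.23, -0.56 and -0.33, with an SD over arrays of 0.16 where that of the brighter CXCL2 probe was 1.06. The fitted ratio was -0.34 ± 0.17 (95% interval -0.75 to 0.07; adjusted p = 0.999, limma), and -0.36 within the scan day of arrays 1, 3 and 4. In the Sscrofa11.1 gene table CXCL8 and AMCF-II are next to each other, with 4 genes between AMCF-II and CXCL2. These neighbours had unlike ratios on array 1, at -1.16 for CXCL8 and -0.23 for AMCF-II, and on array 4, at 0.04 and -0.33.

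Markers of neutrophils and other granulocytes were few on this array. Of 9 markers listed, 3 had a probe, and all 3 were tested: S100A8 at -0.73 ± 0.25, S100A9 at -0.17 ± 0.19 and S100A12 at 0.29 ± 0.26 (log2 ratios, moderated SE, n = 4). Their summed signal, on a linear scale, ranged from 2864 to 5145 in treated and from 1658 to 11226 in untreated RNA. The defining markers MPO, ELANE and CSF3R have no named probe here, and the part of neutrophil number in the ratios above was not tested. In a tissue sample, fewer cells of a type and less RNA per cell cannot be told apart.

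CCL2, monocyte chemoattractant protein 1, stood near 0. Its brighter probe had normalised log2 signals of 14.19, 15.03, 13.66 and 14.56 in treated RNA on arrays 1 to 4, against 14.01, 14.94, 14.10 and 14.48 in untreated RNA. Treated RNA was slightly the higher on arrays 1, 2 and 4 and the lower on array 3. The log2 ratios were 0.18, 0.10, -0.44 and 0.09 for this probe and 0.02, -0.14, -0.18 and -0.13 for the other. The fitted ratios were -0.02 ± 0.19 (95% interval -0.46 to 0.42) and -0.10 ± 0.17 (-0.51 to 0.30), and within the scan day of arrays 1, 3 and 4 they were -0.02 and -0.10. The intervals reach a difference of about 0.5 on the log2 scale in the lower direction, so they do not show that CCL2 was unaltered.

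CCL8, monocyte chemoattractant protein 2, lies beside CCL2 in the gene table with 1 gene between them. Its signal cleared background in 4 Cy5 and 0 Cy3 channels, which means in treated RNA on 2 arrays and in untreated RNA on the other two. Its log2 ratios were 0.58, -0.72, -0.01 and -0.02 on arrays 1 to 4. Since one channel was near background on every array, these ratios carry no test, and detection followed the dye and not the treatment.

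Macrophage and monocyte markers stood mostly lower than CCL2. Of 7 markers listed, 4 were on the array and tested, with 3 lower and 1 higher and a median log2 ratio of -0.51. LYZ stood at -0.68 ± 0.25, AIF1 at -0.59 ± 0.26 and CD14 at -0.42 ± 0.20, while CD163, a scavenger receptor of tissue macrophages, stood at 0.18 ± 0.22, and none passed after adjustment. LYZ and AIF1 had their lowest ratios on array 4 (-1.59 and -1.43), CD14 on array 3 (-1.04). The summed signal of the 4 markers ranged from 4826 to 7909 in treated and from 6179 to 13470 in untreated RNA. Their part in the chemokine ratios was not tested.

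CCL5, also called RANTES, draws T cells, monocytes and NK cells. Its brighter probe had normalised log2 signals of 12.72, 14.81, 12.23 and 13.56 in treated RNA on arrays 1 to 4, against 13.45, 14.93, 14.00 and 14.19 in untreated RNA. Treated RNA was the lower on all 4 arrays, by most on array 3 and by least on array 2. The log2 ratios were -0.73, -0.13, -1.77 and -0.63, and those of the second probe were -0.70, -0.50, -1.06 and -0.56. The probes had the same sign on every array but differed by up to 0.71, on array 3. The fitted ratios were -0.81 ± 0.23 (95% interval -1.35 to -0.28; 1.76 times lower) and -0.70 ± 0.18 (-1.12 to -0.29; 1.63 times lower). Both had an adjusted p = 0.999. Of all tested probes, 0.254% had a lower fitted ratio than the brighter CCL5 probe. Within the scan day of arrays 1, 3 and 4 the ratios were -0.94 and -0.72, and without array 3 they were -0.55 and -0.61.

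CCL20, the ligand of CCR6 on T helper 17 cells and immature dendritic cells, had the largest gap between arrays of the T cell chemokines. Its normalised log2 signals were 11.70, 10.80, 10.09 and 9.14 in treated RNA on arrays 1 to 4, against 12.24, 11.02, 12.08 and 8.74 in untreated RNA. Its log2 ratios were -0.54, -0.22, -1.99 and 0.40. Treated RNA was far lower on array 3 and higher on array 4, the array with the lowest signal in both RNAs. The fitted ratio was -0.59 ± 0.27 (95% interval -1.23 to 0.04; adjusted p = 0.999, limma), and leaving out 1 array gave -0.95 without array 1 and -0.23 without array 3. Within the scan day of arrays 1, 3 and 4 it was -0.43.

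CXCL12, stromal cell-derived factor 1, is made by stroma and holds lymphocytes and progenitor cells through CXCR4. It had normalised log2 signals of 9.68, 9.89, 9.50 and 9.65 in treated RNA on arrays 1 to 4, against 9.40, 10.28, 9.68 and 10.05 in untreated RNA. The log2 ratios were 0.29, -0.39, -0.18 and -0.40, higher on array 1 and lower on the others. The fitted ratio was -0.17 ± 0.18 (95% interval -0.60 to 0.25; adjusted p = 0.999, limma), and it was -0.17 within the scan day of arrays 1, 3 and 4. Leaving out array 1 gave -0.29, and leaving out array 3 gave -0.054. CXCR4 itself stood lower, at -0.48 ± 0.18, with log2 ratios of -0.46, -0.28, -0.83 and -0.35 (adjusted p = 0.999).

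T and NK cell markers gave little to set beside these values. Of 8 markers listed, 7 were on the array, and 2 were tested: GZMB, a granule protease of NK and cytotoxic T cells, at -0.38 ± 0.17 and CD3G at -0.27 ± 0.18. Their summed signal ranged from 1125 to 5200 in treated and from 1244 to 7982 in untreated RNA. CD3E, CD3D, CD2 and CD4 were well above background in 0 Cy3 channels and CD8A in 1. The part of T cell number in the CCL5 and CCL20 ratios was not tested.

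**Figure D2:**
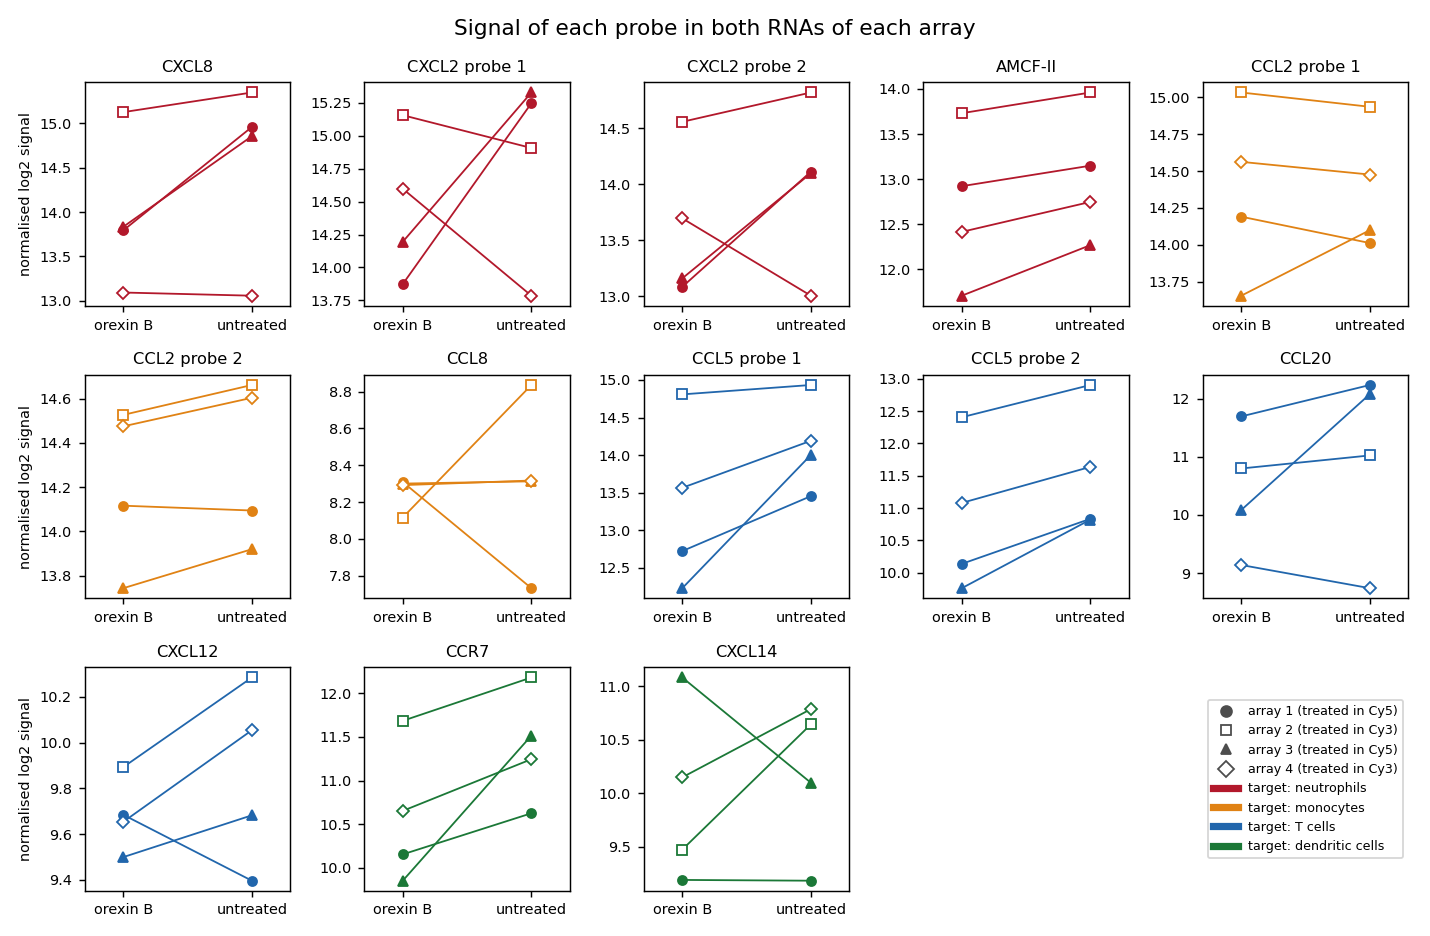
Normalised log2 signal (vertical axis, own scale in each panel) of the 13 probes in orexin B-treated and untreated RNA, with a line joining both RNAs of an array. The lines of AMCF-II, CCR7 and both CCL5 probes all run lower on the treated side, those of CXCL2 cross, and signal differs more between arrays than between the RNAs of one array for most probes.

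CCR7, the receptor that carries mature dendritic cells and naive T cells to lymphoid tissue, had normalised log2 signals of 10.15, 11.68, 9.85 and 10.65 in treated RNA on arrays 1 to 4. The untreated RNA of the same arrays had 10.62, 12.18, 11.52 and 11.24. Treated RNA was the lower on all 4 arrays. As log2 ratios these were -0.47, -0.50, -1.66 and -0.59, alike on arrays 1, 2 and 4 and far lower on array 3. The fitted ratio was -0.81 ± 0.23 (95% interval -1.35 to -0.26), or 1.75 times lower, with an adjusted p = 0.999. It was -0.83 within the scan day of arrays 1, 3 and 4, and -0.51 without array 3. The dye term of CCR7 was -0.26, smaller in size than its treatment ratio.

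CXCL14 attracts dendritic cell precursors and monocytes and is made by epithelium and stroma. Its normalised log2 signals were 9.19, 9.47, 11.08 and 10.15 in treated RNA on arrays 1 to 4, against 9.18, 10.64, 10.10 and 10.79 in untreated RNA. This gave log2 ratios of 0.01, -1.17, 0.98 and -0.64. It stood higher on array 3, where most members stood lowest, and lower on both arrays with treated RNA in Cy3, the reverse of CXCL2. It was above background in treated RNA on 4 arrays and in untreated RNA on 3. The fitted ratio was -0.20 ± 0.22 (95% interval -0.73 to 0.32; adjusted p = 0.999, limma), and -0.07 within the scan day of arrays 1, 3 and 4. It was 0.040 without array 1 and -0.45 without array 3.

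Of 6 dendritic cell markers listed, 4 were on the array and 2 were tested, both lower. The co-stimulatory receptor gene CD86 stood at -0.68 ± 0.19, with log2 ratios of -0.29, -0.64, -0.88 and -0.92, and CD40 at -0.26 ± 0.18. Their summed signal ranged from 7770 to 16716 in treated and from 8532 to 23166 in untreated RNA. CD80 and the CD1 gene CD1.1 were above background in 0 Cy3 channels. Neither list tells fewer CCR7-bearing cells from less CCR7 RNA per cell, and the part of cell number was not tested.

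**Figure D3:**
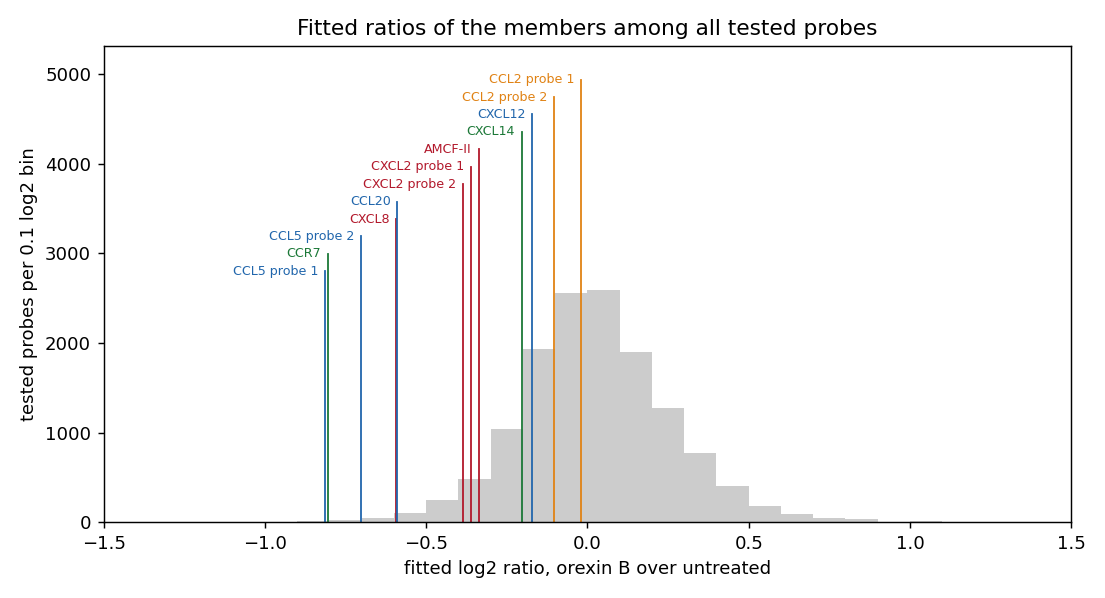
Histogram of the fitted log2 ratios of all 13782 tested probes (grey, probes per bin), with a line at the ratio of each of the 12 tested member probes, coloured by target cell (neutrophil red, monocyte orange, T cell blue, dendritic cell green). CCL5 and CCR7 lie furthest to the low side, at -0.81 each, and CCL2 lies near the centre.

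CCL2 offers a comparison within the same arrays, chosen after its values were seen and given with no test. Against the brighter CCL2 probe, the log2 ratio of CXCL8 gave differences of -1.34, -0.32, -0.58 and -0.05 on arrays 1 to 4. The difference for CCL5 was -0.91, -0.22, -1.33 and -0.71, and for CCR7 it was -0.65, -0.59, -1.22 and -0.68. For AMCF-II it was -0.41, -0.33, -0.12 and -0.42. These 4 genes lay below the brighter CCL2 probe on each array. The other 4 tested genes each lay above it on at least 1 array: CXCL2 on arrays 2 and 4 (differences of 0.15 and 0.73), CCL20 on array 4 (0.31), CXCL12 on arrays 1 and 3 (0.11 and 0.26) and CXCL14 on array 3 (1.43). Beside the second CCL2 probe the order held for AMCF-II and CCR7 but not throughout for CXCL8, which was higher on array 4 (0.04, beside -0.13 for CCL2), nor for CCL5, whose brighter probe was level with it on array 2 (-0.13, beside -0.14). Such differences do not depend on how an array is centred, which moves all its log ratios together. They do depend on loess, whose correction varies with signal. With median centring and no loess CXCL12 was 0.0037 and CCL2 0.31, where the main setting gave -0.17 and -0.02.

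The dye term, which takes up what the arrays of opposite orientation do not share, was large for several members. At an unadjusted limma p under 0.05 it was found for 5 of the 12 member probes, beside 14.2% of all probes. These were both CXCL2 probes (-0.89 and -0.60), CXCL8 (-0.50), CCL20 (-0.68) and CXCL14 (0.70). For CXCL2, CCL20 and CXCL14 the dye term was larger in size than the treatment ratio. The same held for CXCL12 (dye term 0.22) and the brighter CCL2 probe (-0.11), where both values were small. A dye effect on these probes and a difference between the tissues hybridised to the arrays cannot be told apart with 2 arrays in each orientation. Across probes, the ratios of Cy5 over Cy3 correlated at 0.34 between arrays 1 and 3 and at -0.03 between arrays 2 and 4. Between arrays of opposite orientation the correlations were 0.38 (1 and 2), 0.16 (1 and 4), -0.06 (2 and 3) and 0.27 (3 and 4). The source of these correlations was not tested. For AMCF-II the dye term was -0.06, and for the CCL5 probes it was -0.44 and -0.18.

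The direction of these ratios rests on the dye given for each array in the labels, while a protocol text common to the samples allows the reading that Cy3 always marked untreated RNA. The authors' deposited log2 ratios run with the dye labels: against the scanner's ratio of Cy5 over Cy3 their correlations over tested probes were 1, -1, 1 and -1 on arrays 1 to 4. Under the other reading no dye term can be fitted, and the ratio of CXCL14 was 0.70 and that of CXCL12 was 0.22, while CXCL2 stood at -0.89, CCR7 at -0.26, CCL5 at -0.44 and AMCF-II at -0.06. These are the dye terms of the main fit, since both are the mean ratio of Cy5 over Cy3, so they are not a separate result. The members with an unadjusted limma p under 0.05 were then CXCL2 and CXCL14, none of those found with the dye labels. The share of all probes at that level under this reading is not given. With median centring of each array and no loess, the median of all tested probes moved to 0.28, and member ratios moved with it. CXCL2 (0.043), CXCL12 (0.0037) and CCL2 (0.31) were then above 0, but against that median they stood at -0.24, -0.28 and 0.03. CCL5 and CCR7 stood at -0.82 and -0.88 against it, and CXCL8 at -0.46.

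**Figure D4:**
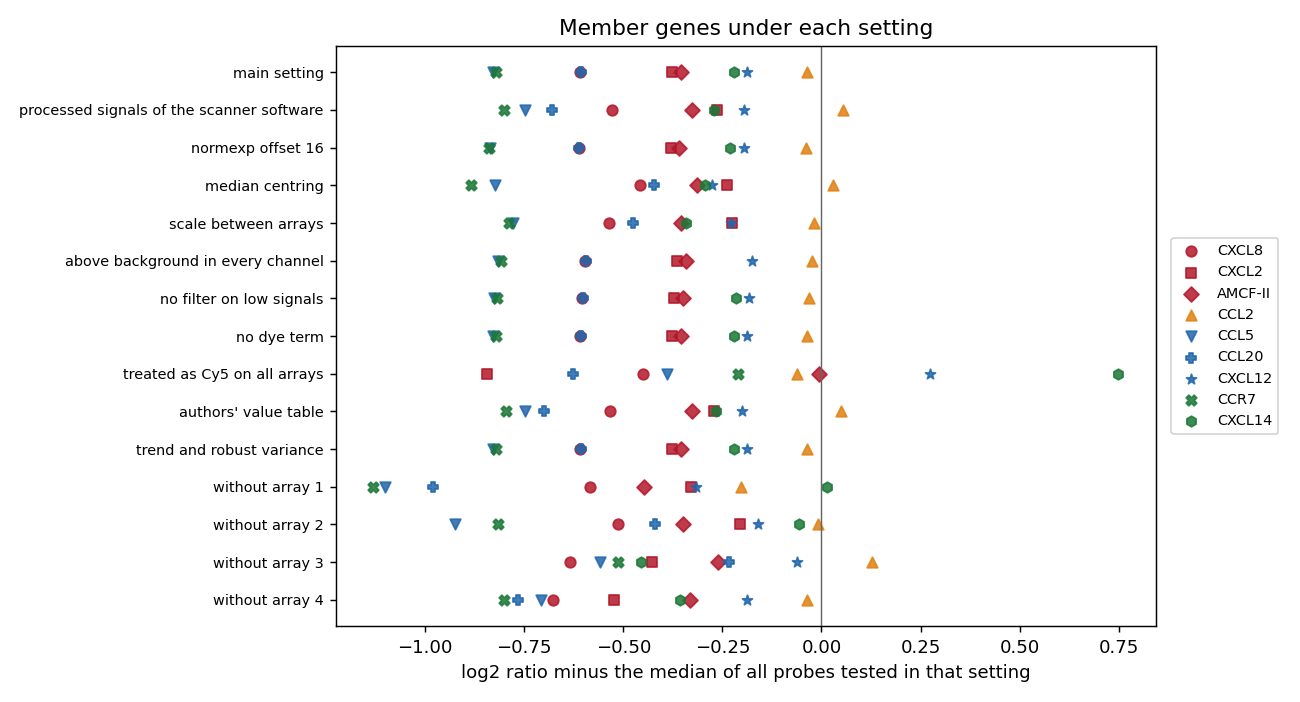
Log2 ratio of the brightest tested probe of each member gene minus the median of all probes tested in that setting (horizontal axis), for the main setting and each alternative (vertical axis). CCL5, CCR7, CXCL8, CXCL2 and CCL20 lie below 0 in each setting drawn, CCL2 stays between -0.20 and 0.13, and CXCL14 moves to the right where treated RNA is taken as Cy5 on all arrays.

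Other chemokine genes had no common direction. Of 25 listed beside the members, 14 had a probe and 6 were tested, 3 lower and 3 higher, with a median log2 ratio of -0.15 and 0 after adjustment. CCL4, macrophage inflammatory protein 1 beta, stood at -0.42 ± 0.17 with ratios below 0 on 4 of 4 arrays (adjusted p = 0.999). PPBP, a platelet chemokine for neutrophils, stood at -0.52 ± 0.28 and ran from 0.61 on array 1 to -1.60 on array 4. The CCR7 ligands did not go with their receptor: CCL19 stood at 0.02 ± 0.18 and CCL21 at 0.18 ± 0.20.

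Of 22 other chemokine receptors, 15 were on the array and 4 were tested, 3 lower and 1 higher, with a median of -0.34 and 0 after adjustment. After CXCR4, the smallest p was that of CCR1, a receptor of CCL5, at -0.44 ± 0.25 (adjusted p = 0.999), with 0.46 on array 1 and -0.94 on array 4. The neutrophil receptors CXCR1 and CXCR2 have no named probe here.

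Chemokine genes such as CXCL8, CCL5 and CCL20 are known targets of the transcription factor NF-kappaB, and its genes and the cytokines that induce chemokines were listed together. Of 25 listed, 19 were on the array and 14 were tested, 10 lower and 4 higher, with a median of -0.28 and 0 after adjustment, where 56.1% of all tested named genes were lower. At an unadjusted limma p under 0.05 there were ICAM1 (-0.58 ± 0.18), an adhesion molecule for neutrophils, TNFAIP3 (-0.54 ± 0.19), a feedback inhibitor, the transcription factor IRF1 (-0.45 ± 0.17) and IL1B (-0.46 ± 0.18). These are 4 of the 14 tested, beside 1.87% of all probes that were lower at that level. That share is over probes, most of them without a name, and the share over named genes is not given. A second IRF1 probe stood at -0.19. ICAM1 and IRF1 were below 0 on all 4 arrays and lowest on array 3 (-1.06 and -0.75), whereas IL1B was lowest on array 4 (-0.90). TNF, a strong inducer of CXCL8, stood at 0.02 ± 0.18.

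The gene most alike to each member was taken as the named gene with the smallest root mean square difference in log2 ratio over the 4 arrays, among 1595 genes. For CCL2 it was MMP9, a gelatinase, at a difference of 0.04, and for AMCF-II it was AK4, an adenylate kinase, at 0.06. CXCL12 was closest to SSH1 (0.07), CXCL2 to the cell polarity gene PARD6B (0.10) and CXCL8 to the class II gene SLA-DQA1 (0.14). The remaining members had no close counterpart. CXCL14 was closest to ACTC1 (0.27), CCR7 to SAA3 (0.32), CCL5 to the class I gene SLA-5 (0.34) and CCL20 to CYBA (0.39). SAA3, SLA-5 and CYBA were lowest on array 3 as CCR7, CCL5 and CCL20 were, at -1.27, -1.24 and -1.33. This largely follows from how they were chosen, by likeness over the same 4 arrays.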

How the data were processed

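Spot intensities of Cy3 and Cy5, and a log10 ratio of Cy5 over Cy3, were deposited as Agilent Feature Extraction 10.7.3.1 output, per the file headers. The authors' series table holds log2 ratios that equal the scanner ratio turned to treated over untreated (correlation of 1 or -1 over tested probes), with column medians of 0.18, 0.29, 0.01 and 0.03. Its centring is not stated in the sources used here.

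Median spot signals were background-corrected by normexp (offset 50) and normalised by loess within each array, where control and outlier spots got weight 0 (limma 3.58.1, R 4.3.3). Outlier spots were dropped and spots of a probe averaged, so 215 of 13782 tested probes lack an array, none of them a member's. No spot was saturated. Limma's lmFit and eBayes fitted treatment and dye terms (2 residual and 5.09 prior degrees of freedom) across all tested probes. Two-sided p-values were adjusted by Benjamini-Hochberg, and the code was tested on simulated data. Channel levels are after Aquantile scaling, which leaves ratios as they are. Precision is limited by the 4 arrays. Alternatives covered background, normalisation, filter, dye term, dye reading, variance model, probe averaging, the authors' table and each array left out.

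Probes were named through RefSeq accessions (Sscrofa11.1 table, 6700 of 43603 probes), so a member's probe under another identifier is not described. Named were all members, list genes with an unadjusted p under 0.05 (or the 2 smallest), markers, and each member's most alike gene; other list genes named beside a member were chosen after their values were seen. A gene's value is that of its brightest tested probe. Members and lists were chosen with earlier results of these data known.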

Additional observations from a re-analysis of the deposited data

Results flagged for a closer look

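Of the 13 member probes, 2 had an array far from the other three, at a gap of more than 0.829 of the whole range (Dixon's critical value for 4 values). Chance alone gives such a gap in about 1 in 20 groups. Both gaps were on array 3. CCR7 had a log2 ratio of -1.66 there, where the other arrays lay between -0.59 and -0.47. The brighter CCL2 probe had -0.44 there, where the others lay between 0.09 and 0.18, and the second CCL2 probe had -0.18 on that array, close to its values on arrays 2 and 4.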

How the results depend on the processing

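Member probes past the adjusted threshold numbered 0 in each of the 15 alternatives, 8 to 13 probes were lower, and the median of member genes lay between -0.50 and -0.03. Gene ratios kept their direction in 124 of 134 comparisons, and those of CXCL8, AMCF-II, CCL5, CCL20 and CCR7 in each. Part of this agreement was fixed in advance. The filters, the variance model and leaving out the dye term do not alter a member's ratio. Nor does probe averaging for a gene with a single probe. The ratios of CXCL2, CCL2, CXCL12 and CXCL14 changed sign in at least 1 alternative. With median centring CXCL2 was 0.043, CCL2 0.31 and CXCL12 0.0037, of which the shift of all probes (0.28) is a part. With treated RNA taken as Cy5 on all arrays, where a member's ratio equals its dye term in the main fit, CXCL12 was 0.22 and CXCL14 0.70. CCL2 was also 0.063 with the scanner's processed signals, 0.0038 with scaling between arrays and 0.047 with the authors' table. Leaving out an array gave -0.18 to 0.14 for CCL2 and -0.45 to 0.040 for CXCL14. Why these values differ was not tested. Member probes with an unadjusted limma p under 0.05 numbered 4 with all arrays, 2 without array 3, 6 without array 4 and 2 with median centring. The share of all probes at that level was 3.59% with all arrays and is not given for the alternatives. These counts therefore cannot be compared between settings. Without array 2, limma called 15 of all probes, none a member. No fit with probes averaged per gene can count lower probes. The analysis was paired throughout, because both RNAs of a replicate share an array and each ratio is a pair. Cy3 signal limits CCL8 and CXCL14.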

Other observations

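Several chemokines outside the members were seen in a single dye. CCL11, CCL25, CCL28 and XCL1 had, by their best probe, a clear Cy5 signal on 4 arrays and a clear Cy3 signal on 0, and CCL3L1 and CCL14 had a clear Cy3 signal on 1. Since treated and untreated RNA were in Cy5 on 2 arrays each, this pattern follows the dye and gives no ratio to report.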
